A study of Drosophila melanogaster with 23 samples.

Results

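The 10 genes described here encode architectural and insulator proteins of Drosophila melanogaster: Cp190, BEAF-32, su(Hw), CTCF, mod(mdg4), pita, ZIPIC, M1BP, Dref and Chro. They were chosen by name, with earlier results of these data known. The question was whether their own genes carry regions bound by Mzfp1, the MADF and zinc finger protein encoded by CG1603. They are 10 of the 13968 protein-coding genes annotated on the assembled chromosomes. A region was assigned to a gene when it overlapped the gene body or the 1000 bp upstream of an annotated transcription start site (TSS), called the gene window below, and it was called a TSS region when it reached within 200 bp of a TSS of that gene. By this rule 57 of the 27155 regions in the 10 deposited peak lists belonged to 8 of the 10 genes.

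The series holds 23 chromatin immunoprecipitation (ChIP-seq) libraries, 18 of them from ChIP and 5 from antibody controls. Each of the 8 adult lists was made from 2 libraries of whole adults of 2 to 3 days, and each of the 2 embryo lists from 1 library. Transgenic adults expressed HA-tagged Mzfp1 under the Ubi-p63E promoter, in full length (wt-HA) or as a deletion variant. The variants lacked the second MADF domain (ΔM2-HA), a stretch that contacts CP190 (Δ42-HA) or several of the zinc fingers (ΔZF-HA). The study mapped another CP190-contacting stretch, which Δ42-HA keeps. In cultured cells it found that Mzfp1 with the Δ42 deletion still bound CP190 weakly. All transgenic adults were heterozygous for a deletion allele of CG1603, so native protein remained. Anti-Mzfp1 can precipitate this native protein along with the tagged form, while anti-HA takes the tagged form alone. Immunoblots in the study showed more of the ΔM2-HA protein, and less of the Δ42-HA protein, than of full-length wt-HA. The anti-Mzfp1 antibodies were raised against a stretch of the protein that includes the part missing in Δ42-HA. How far this changes the recovery of Δ42-HA with anti-Mzfp1 was not tested. The strain y1w1118, with no transgene, was precipitated with anti-Mzfp1 as adults and as embryos, the embryos once with a rat and once with a rabbit antibody. ΔZF-HA was precipitated with anti-HA alone. No group had a second list, so no difference between lists has a replicate check, and every comparison of lists below is a description with no test. The peak lists hold no read totals, so the depth behind each region is unknown.

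Architectural proteins mark the borders of chromatin domains and hold distant DNA elements together. Most of them are zinc finger proteins that read a DNA motif, and several of these recruit CP190, a BTB domain protein that is brought to DNA by such partners. Some, such as M1BP, itself a zinc finger protein, and Dref, read motifs of housekeeping promoters, and many domain borders in the fly genome lie at such promoters. The protein studied here, Mzfp1, belongs to the same class and interacts with CP190.

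To see which DNA lies under the regions, a 15 bp matrix was trained on the 500 regions of highest fold enrichment in the y1w1118 adult list, with every region of the 10 genes left out. Its most frequent bases at positions 4 to 10 spell ATCGATA. With a threshold passed by 2.5% of windows 500 to 700 bp away from the summits, 36.6% of the 1666 y1w1118 adult regions on assembled chromosomes held a match within 100 bp of the summit, and 9.87% of all 19276 TSSs of protein-coding genes held one within 100 bp. Of the 500 training windows, which have the highest fold, 29.0% held a match, a lower share than that of the whole list. The consensus of the matrix contains TATCGATA, the element read by Dref, which includes CGATA, so matches and these words overlap. These matches are a description of letters and show no bound factor. Of the 10 genes 6 had a match within 100 bp of a TSS, against 12.9% of protein-coding genes. The matches of 5 genes are printed below, 5′ to 3′ in the orientation of the matrix with positions 4 to 10 in capitals. All of them passed the same threshold, so their likeness follows from that choice. Chromosome arm and the signed distance of the centre from the TSS, with upstream negative, are given after them.

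Cp190 first TSS: gctATCGATAgctgc
Cp190 second TSS: tatATCGATAtttgc
CTCF: gctATCGATAgttcg
mod(mdg4): tatATCGATAgctta
Dref: ccaATCGATAgctgg
Chro first TSS: cctGTCGATAgcttt

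The Cp190 matches lie on chr3R at 15275233 to 15275247 and 15274799 to 15274813, at 1 and −16 bp. The CTCF match lies on chr3L at 7356725 to 7356739, at −19 bp. The mod(mdg4) match lies on chr3R at 21377446 to 21377460, at −52 bp, the Dref match on chr2L at 9967237 to 9967251, at −15 bp, and the Chro match on chr3L at 22878887 to 22878901, at 90 bp. The coordinates are those of Release 6 of the genome (dm6). The pita gene is the sixth with a match, scoring 13.93 at its 5′ TSS.

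The 4 promoters that bear most on the results are given from 100 bases before the first TSS (83 for Dref, where the divergent gene RpL13 starts) to 9 bases from the TSS on, with any match in capitals. Cp190 has both a match to the matrix and a region, and CTCF and Dref have such a match and no region there. M1BP has the strongest anti-Mzfp1 region of the 10 genes and no match to the matrix. All 4 are on the minus strand, and the sequences, from the RefSeq assembly, are written in the direction of transcription.

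Cp190, chr3R:15275233-15275341: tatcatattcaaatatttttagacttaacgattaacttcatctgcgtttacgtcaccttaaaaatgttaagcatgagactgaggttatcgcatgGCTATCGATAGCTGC
CTCF, chr3L:7356705-7356813: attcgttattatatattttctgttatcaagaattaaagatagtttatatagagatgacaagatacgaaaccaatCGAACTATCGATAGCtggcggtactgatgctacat
Dref, chr2L:9967221-9967312: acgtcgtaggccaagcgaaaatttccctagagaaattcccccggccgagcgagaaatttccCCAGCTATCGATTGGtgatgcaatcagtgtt
M1BP, chr3R:8731690-8731798: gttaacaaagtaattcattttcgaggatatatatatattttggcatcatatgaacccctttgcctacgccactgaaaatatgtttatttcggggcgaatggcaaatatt

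In adults precipitated with anti-Mzfp1, the genes with a region were nearly the same ones in every line, and most of these regions sat on a start site. In ΔM2-HA adults 5 of 10 genes (Cp190, BEAF-32, pita, M1BP and Chro) had a TSS region, a share of 50.0% with an exact Clopper-Pearson 95% interval of 18.7% to 81.3%, against 12.9% of all protein-coding genes. The same 5 genes had one in Δ42-HA adults, against 16.7% of protein-coding genes. In wt-HA adults 4 of them had one, Chro being the gene without, against 14.6% of protein-coding genes. All 5 had one again in y1w1118 adults, against 14.7% of protein-coding genes. Within the whole gene window the count was 5 of 10 in each of the 4 lists, against 16.4% of protein-coding genes in ΔM2-HA, 20.8% in Δ42-HA, 17.8% in wt-HA and 18.2% in y1w1118. The intervals cover counting error only, and the 4 counts rest on the same 10 genes. Among the 574 regions of highest fold enrichment in each list the TSS counts were lower, with 2 genes in ΔM2-HA, 2 in Δ42-HA, 1 in wt-HA and 2 in y1w1118, and in y1w1118 these were BEAF-32 and M1BP. With the summit itself required within 200 bp of a TSS, the counts were 4 in ΔM2-HA, 4 in Δ42-HA, 3 in wt-HA and 4 in y1w1118. The gene lost in each list was pita, whose regions reached a TSS by their edge alone. The share of all protein-coding genes was not computed for the cut lists or the summit rule. Whether these drops are particular to the 10 genes was therefore not tested.

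With anti-HA the lists differed widely in length. There are 6245 regions in the ΔM2-HA list, 6216 in that of Δ42-HA and 6218 in that of ΔZF-HA, against 574 in wt-HA. A matrix match lay within 100 bp of the summit for 2.77% of ΔM2-HA, 2.33% of Δ42-HA and 0.711% of ΔZF-HA regions. In wt-HA the share was 12.5%, and 2.5% of flanking windows passed the same threshold. For ΔZF-HA with anti-HA the study itself saw neither true peaks nor significant signal. Whether the variant anti-HA regions described below mark bound sites was not tested. Within the gene window 6 genes had a region in ΔM2-HA, against 29.6% of protein-coding genes, 6 in Δ42-HA, against 31.0%, 4 in ΔZF-HA, against 19.4%, and 1 in wt-HA, against 5.08%. The ΔZF-HA count was 1 under a common limit of 0.01 on the irreproducible discovery rate, which the other anti-HA lists already meet. At a TSS the counts were 4 in ΔM2-HA (16.5% of protein-coding genes), 3 in Δ42-HA (14.2%), 1 in ΔZF-HA (5.06%) and 1 in wt-HA (3.59%). When every adult list was cut to its 574 regions of highest fold enrichment, the TSS count was 2 in the ΔM2-HA list and 0 in both the Δ42-HA and ΔZF-HA lists, against 1 in wt-HA. The share of all protein-coding genes was not computed for the cut lists or under the common limit of 0.01.

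In embryos, whose lists were called by another procedure, fewer of the 10 genes had a region than in y1w1118 adults. With the rat antibody 3 had one in the gene window, against 7.83% of protein-coding genes, and 1 (BEAF-32) at a TSS, against 5.90%. With the rabbit antibody, whose list holds 117 regions, mod(mdg4) alone had one in the gene window, against 1.02%, and at the TSS, against 0.723%. Over all 20 of these counts the share of protein-coding genes lay below the exact interval of the 10 genes in 6, all of them in adult anti-Mzfp1 lists, and inside the interval in the others. This tally is no test, since the counts rest on the same 10 genes. These were picked by name and are no random sample of genes. A share outside an interval therefore cannot be read as a difference from other genes. In the gene window of wt-HA and y1w1118 adults the shares of 17.8% and 18.2% lay just under the bound of 18.7%. A count of 4 genes, as at the TSS in wt-HA, has an interval from 12.2% to 73.8%, which holds the share of 14.6%.

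**Figure D1:**
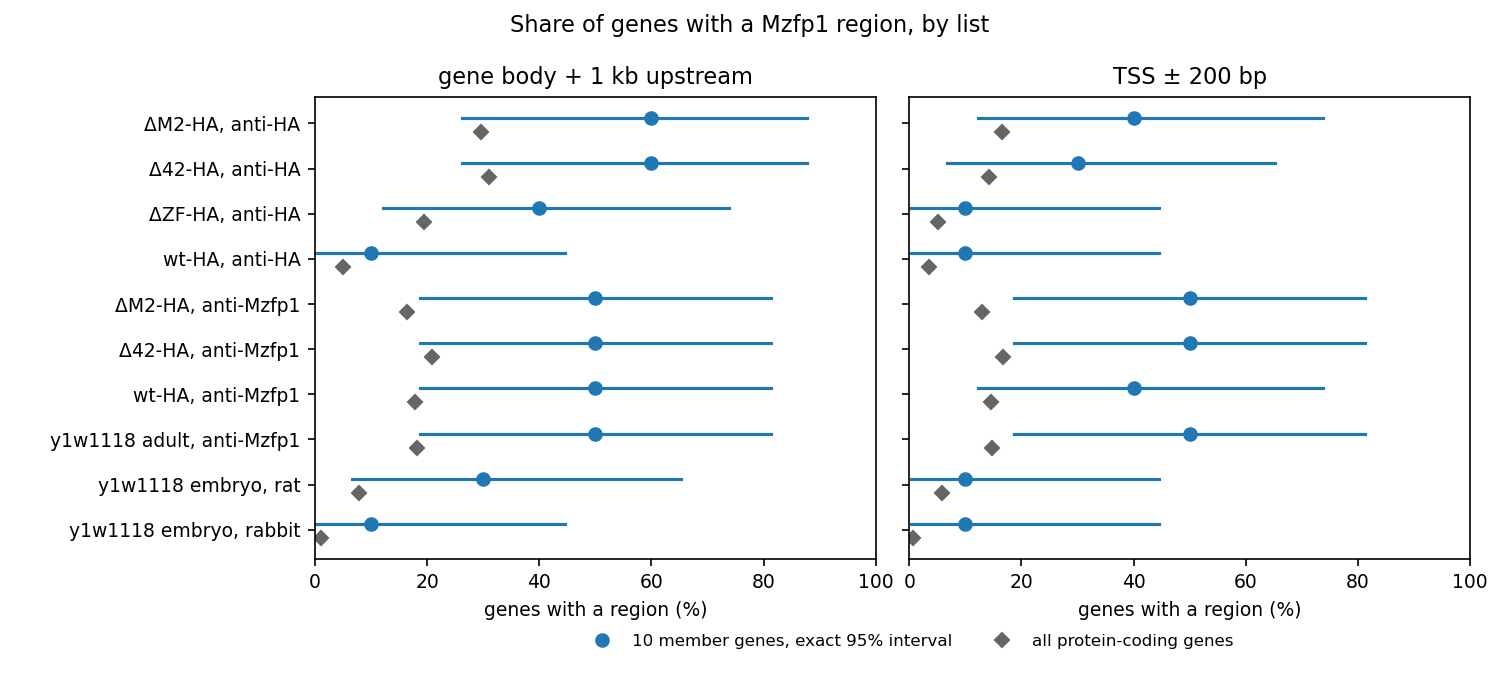
Percent of genes with a region in each of the 10 lists, in the gene window (left) and within 200 bp of a TSS (right). Circles are the 10 genes with exact 95% intervals and diamonds all 13968 protein-coding genes. In y1w1118 adults the TSS share is 50.0%, against 14.7% of all protein-coding genes.

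**Figure D2:**
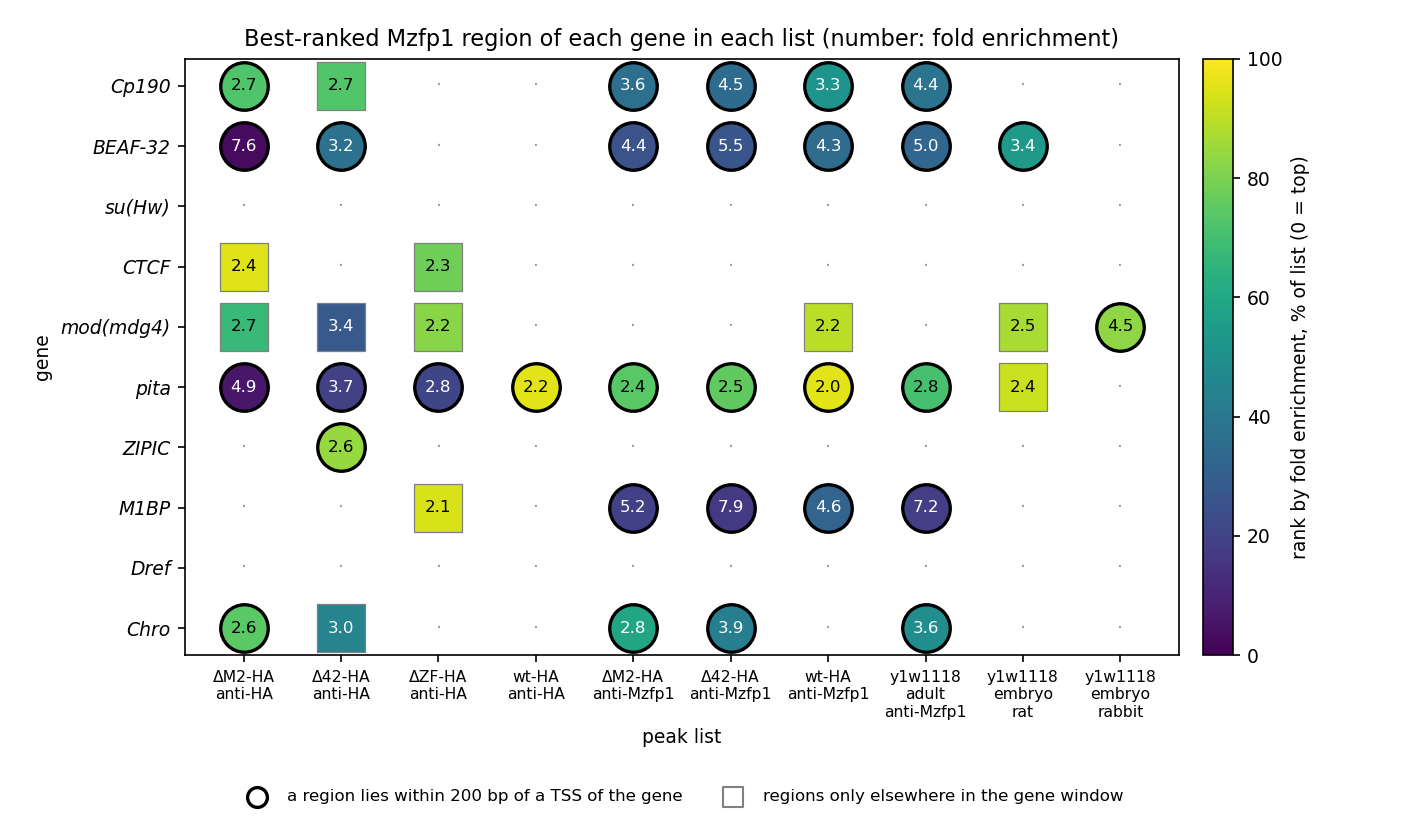
Best-ranked region of each of the 10 genes (rows) in each list (columns), with the fold enrichment as a number and the rank as a percent of the list as the colour. Circles mark genes with a TSS region, squares genes with regions elsewhere in the window and dots genes with none. The number in a circle is that of the best-ranked region, which need not be the TSS region. It is another region for pita in Δ42-HA with anti-HA (3.66) and for mod(mdg4) in rabbit-antibody embryos (4.54). Cp190, BEAF-32, pita and M1BP have a TSS region in all 4 adult anti-Mzfp1 columns, and su(Hw) and Dref have no region in any column.

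The gene for CP190, the shared cofactor, lies on the minus strand of chromosome 3R (15270432 to 15275241, FBgn0000283) with 2 annotated TSSs, and its first TSS is 281 bp from that of the divergent gene CG4338. With anti-Mzfp1 the fold enrichment over control of its TSS region was 3.59 in ΔM2-HA, 4.53 in Δ42-HA, 3.30 in wt-HA and 4.38 in y1w1118 adults. With rank 1 for the highest fold, it stood at rank 594 among 1620 regions in ΔM2-HA, at 695 among 2008 in Δ42-HA, at 878 among 1699 in wt-HA and at 642 among 1670 in y1w1118. These were regions of middle strength, 34.6% to 51.7% of the way down their lists.

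The Cp190 summits almost coincided with the start site. The summit lay at −4 bp from the first TSS in ΔM2-HA, −7 bp in Δ42-HA, −9 bp in wt-HA and −4 bp in y1w1118 adults, a spread of a few bases among 4 lists. In the y1w1118 adult list 10.6% of all summits fell within 10 bp of a TSS of any gene and 75.1% within 100 bp. The centre of the match at the first TSS was 5 bp from the y1w1118 summit, and this match scored 18.68 with a threshold of 11.54. The region was 667 bp wide in ΔM2-HA and 678 bp in Δ42-HA, against 397 bp in wt-HA, and 343 bp wide in y1w1118.

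With anti-HA a Cp190 TSS region of fold 2.65 was listed in ΔM2-HA (rank 4513 of 6245) with the summit at 32 bp and a width of 1618 bp, and none in wt-HA. In Δ42-HA the promoter had no region, and the single region in the gene, of fold 2.71, had its summit 3660 bp downstream of the second Cp190 TSS in a coding exon, closer to the start of the zinc transporter gene Zip88E. Neither the ΔZF-HA list nor either embryo list held a region in the gene window.

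BEAF-32 encodes the boundary element associated factor, which binds clusters of CGATA. The gene is on the plus strand of chromosome 2R (14770469 to 14772630, FBgn0015602) and has 3 TSSs. It had a TSS region in 7 of the 10 lists, more than any of the 10 genes but pita. With anti-Mzfp1 the fold was 4.40 in ΔM2-HA, 5.46 in Δ42-HA, 4.33 in wt-HA and 4.95 in y1w1118 adults, and the summit from the second TSS was at −33 bp in ΔM2-HA, −40 bp in Δ42-HA, −30 bp in wt-HA and −28 bp in y1w1118. The start of the antisense gene asRNA:CR42254 is there too, 2 bp from the y1w1118 summit, so a summit at the one start cannot be told apart from a summit at the other.

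The widest regions of the 10 genes were at BEAF-32. One spanned 2013 bp in Δ42-HA, against 1814 bp in wt-HA, and 1889 bp in y1w1118 adults, where the median width of the whole list was 495.5 bp. In ΔM2-HA the same stretch was listed as a pair of regions of 685 and 703 bp, the further one of fold 3.92 with its summit 213 bp past the third TSS. The rat antibody in embryos also gave a pair, of fold 2.42 at −29 bp from the second TSS and of fold 3.44 at 384 bp from the third. Near the second TSS the y1w1118 summit stood at −28 bp in adults and −29 bp in embryos.

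With anti-HA, BEAF-32 was among the top regions of ΔM2-HA, at fold 7.56 and rank 186 of 6245, whereas it had fold 3.16 and rank 2325 of 6216 in Δ42-HA and was not listed in wt-HA. The ΔM2-HA summit lay at −25 bp from the first TSS and the Δ42-HA summit at 379 bp from the same TSS, or −68 bp from the second. No window of 100 bp on either side of these summits passed the matrix threshold. The word CGATA, on either strand, was found 3 times around the third-TSS summit of ΔM2-HA with anti-Mzfp1 and 1 time around the y1w1118 summit, and 66.5% of all y1w1118 adult regions hold it.

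**Figure D3:**
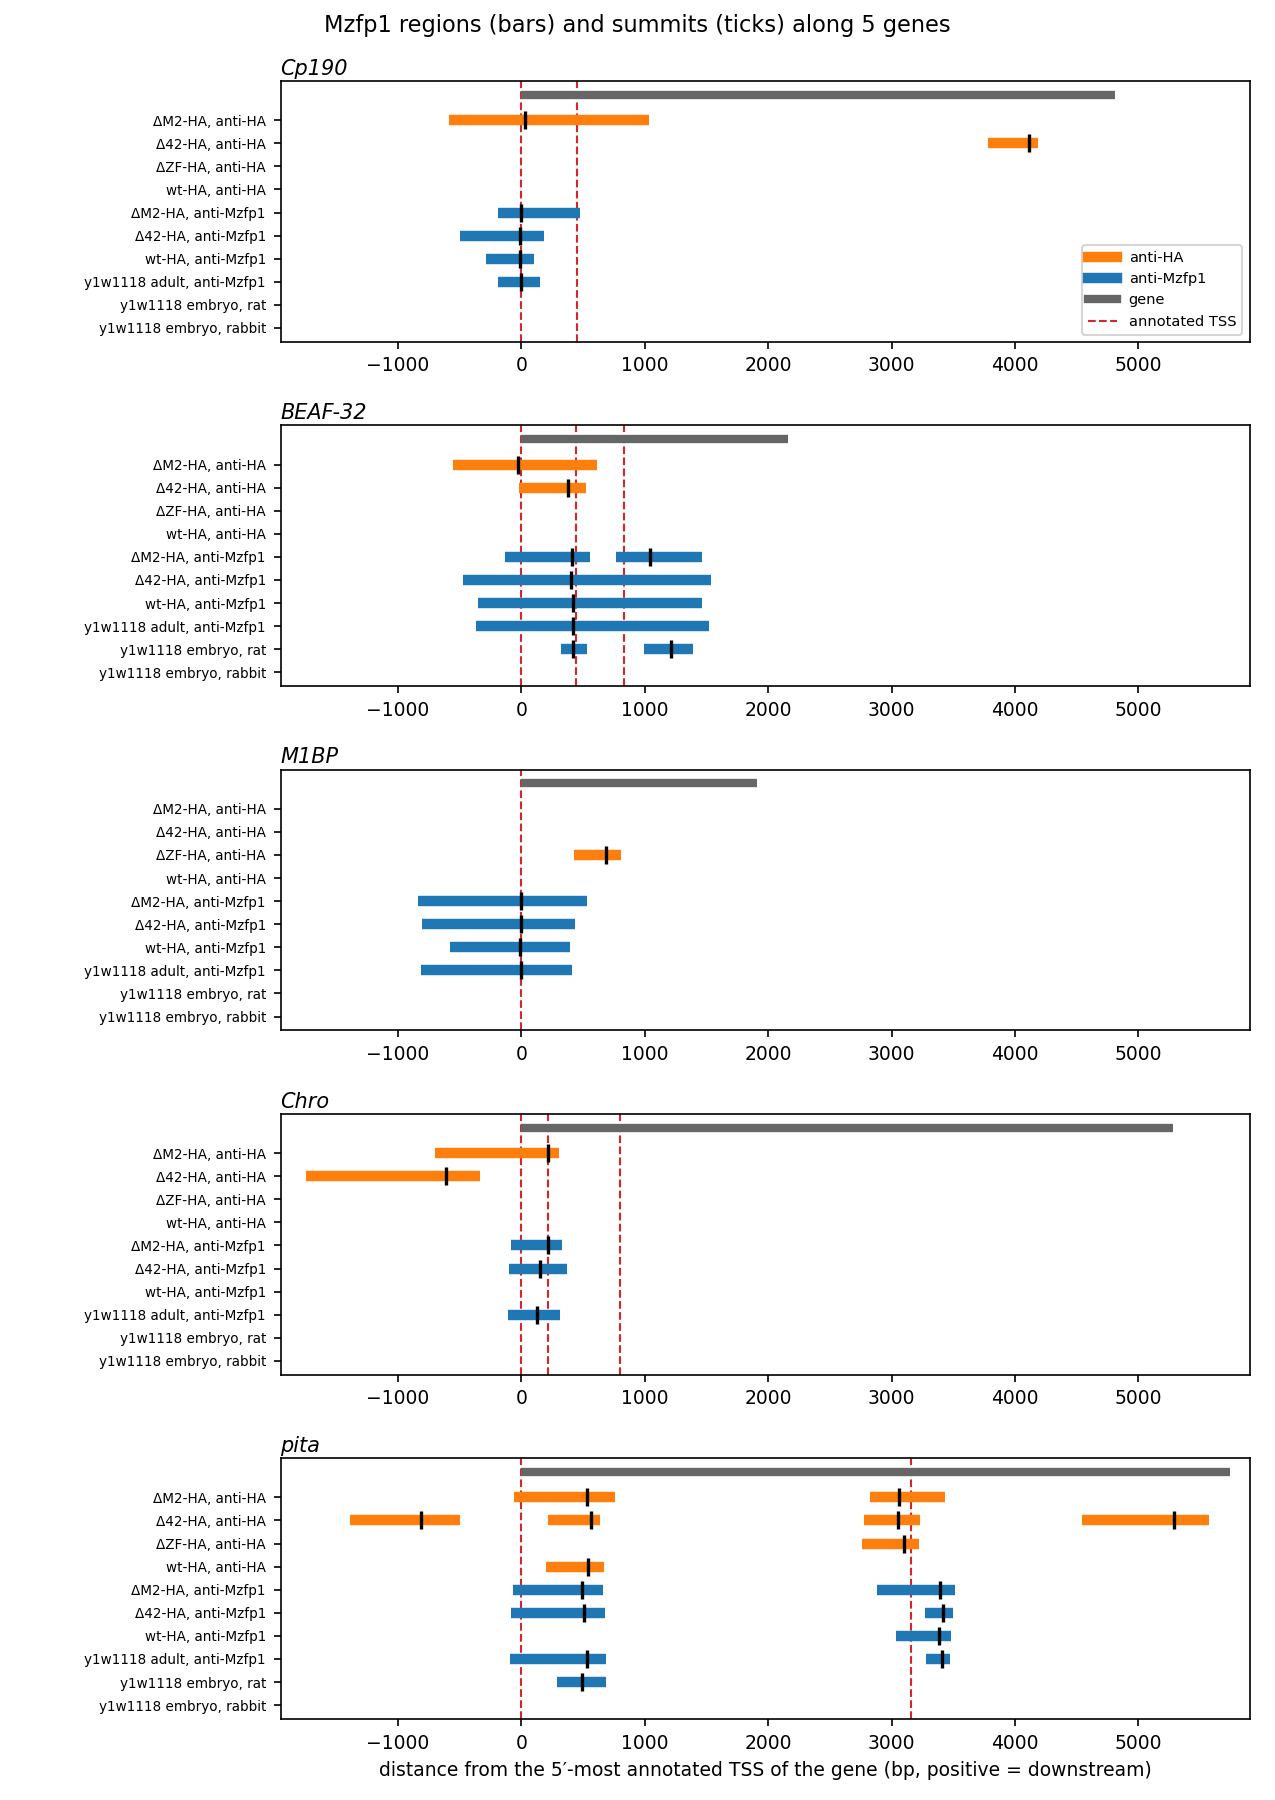
Regions (bars) and summits (ticks) of all 10 lists along Cp190, BEAF-32, M1BP, Chro and pita, to scale, by distance in bp from the 5′-most TSS of each gene. Orange bars are anti-HA lists, blue bars anti-Mzfp1 lists, red dashed lines annotated TSSs and grey bars the genes. The Cp190 and M1BP summits of the 4 adult anti-Mzfp1 lists stand within 10 bp of the first TSS.

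M1BP encodes the protein that reads motif 1 in core promoters, where RNA polymerase II pauses. The gene is on the minus strand of chromosome 3R (8729790 to 8731698, FBgn0037621) with 1 TSS, 393 bp from that of the divergent gene CG8202. It had the highest fold of the 10 genes with anti-Mzfp1: 5.16 in ΔM2-HA, 7.86 in Δ42-HA, 4.58 in wt-HA and 7.20 in y1w1118 adults. The y1w1118 region was at rank 306 of 1670, and its −log10 p was 235.

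The M1BP summits lay at −1 bp in ΔM2-HA, −2 bp in Δ42-HA, −8 bp in wt-HA and −2 bp in y1w1118 adults. The region was 1371 bp wide in ΔM2-HA and 1245 bp in Δ42-HA, against 976 bp in wt-HA, and 1224 bp wide in y1w1118. The lowest fold, the lowest rank by percent of the list (31.7%) and the smallest width were all those of wt-HA. No such region was listed with anti-HA in ΔM2-HA, Δ42-HA or wt-HA, nor in embryos. In ΔZF-HA a weak region of fold 2.13, at rank 5848 of 6218, had its summit 686 bp inside the gene in a coding exon.

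The sequence at the M1BP start held none of the letters searched. Neither TATCGATA, the element read by Dref, nor CGATA, nor GGTCACAC, the core of motif 1, was found on either strand within 100 bp of the TSS or of the 4 anti-Mzfp1 summits, and the best matrix score at the TSS was 0.45. Of all protein-coding TSSs 6.44% hold TATCGATA, 37.1% CGATA and 5.68% GGTCACAC in a window of that length, and TATCGATA includes CGATA. A further 390 protein-coding genes had the M1BP pattern of a TSS region in the 4 adult anti-Mzfp1 lists and in no other.

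Chro encodes Chromator, a chromodomain protein of interbands and domain borders. The gene is on the minus strand of chromosome 3L (22873702 to 22878984, FBgn0044324) with 3 TSSs, the first 105 bp from that of the divergent TFIIH subunit gene Ssl1. With anti-Mzfp1 its TSS region had fold 2.76 in ΔM2-HA and 3.90 in Δ42-HA, was not listed in wt-HA, and had fold 3.65 in y1w1118 adults. The nearest wt-HA region began 1446 bp outside the window, at the start of CG11109.

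The Chro summits lay near the second TSS and moved more than those of Cp190 or M1BP: at 1 bp in ΔM2-HA, −67 bp in Δ42-HA and −86 bp in y1w1118 adults. Counted from the first TSS, the y1w1118 summit was at 130 bp. With anti-HA the ΔM2-HA list had a region of fold 2.63 with its summit at −1 bp, at rank 4636 of 6245. In Δ42-HA a region of fold 3.03 had its summit at −608 bp from the first TSS, closer to the start of Ssl1, and wt-HA had none. Around the anti-Mzfp1 summits of Δ42-HA and y1w1118 the sequence held a match of 11.75, just past the threshold. The ΔM2-HA windows of both antibodies, whose summits lay at the second TSS, and the anti-HA window of Δ42-HA held none.

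The gene pita encodes a zinc finger protein with a zinc finger associated domain that binds domain boundaries and recruits CP190. It is on the minus strand of chromosome 2R (23548967 to 23554712, FBgn0034878) with 2 TSSs, and it had regions in 9 of the 10 lists, the most of the 10 genes. Its 16 regions formed 4 sites. The first to be described lies in an intron about 500 bp inside the gene, the second around the internal TSS, and the other two, upstream and near the 3′ end, were listed in Δ42-HA with anti-HA alone.

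The intronic pita site is the single region of the 10 genes that wt-HA with anti-HA listed. With anti-HA its fold was 4.88 in ΔM2-HA and 2.78 in Δ42-HA, against 2.24 in wt-HA, and with anti-Mzfp1 it was 2.19 for ΔM2-HA, 2.5 for Δ42-HA and 2.80 for y1w1118 adults. The wt-HA list with anti-Mzfp1 did not hold it, and the rat embryo list did, at fold 2.37. All of these summits lay between 492 and 563 bp from the first TSS, a spread of 71 bp over 7 lists and both antibodies.

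This site was strong in one list and weak in the rest. In ΔM2-HA with anti-HA it was at rank 372 of 6245 and 824 bp wide, against rank 548 of 574 and 470 bp in wt-HA, where it was one of the weakest regions listed, with a −log10 p of 9.80. It counted as a TSS region in wt-HA through its edge alone, since its summit was 543 bp from the TSS. None of the 3 words and no matrix match lay within 100 bp of any of these summits, although the promoter itself holds the match of 13.93 and 1 TATCGATA.

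At the internal pita TSS the antibodies differed in where the summit fell. With anti-Mzfp1 the summits lay at 230 bp in ΔM2-HA, 253 bp in Δ42-HA, 224 bp in wt-HA and 246 bp in y1w1118 adults, in each case within 15 bp of the start of Dcp-1, an effector caspase gene. With anti-HA they lay at −97 bp in ΔM2-HA, −105 bp in Δ42-HA and −63 bp in ΔZF-HA. The anti-Mzfp1 fold was 2.40 in ΔM2-HA, 2.17 in Δ42-HA, 2.05 in wt-HA and 1.95 in y1w1118, all in the lower part of their lists. The anti-HA fold was 4.10 for ΔM2-HA, 3.45 for Δ42-HA and 2.82 for ΔZF-HA, and wt-HA had no region there with this antibody. Whether the 2 groups of summits mark the same bound site was not tested.

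The gene mod(mdg4) encodes a BTB protein family, made by trans-splicing from many 3′ exons, with a member that sits in the gypsy insulator together with Su(Hw). At 26556 bp on the minus strand of chromosome 3R (21350846 to 21377401, FBgn0002781) it is by far the longest of the 10 genes, and a long window is more likely to meet a region. Its 13 regions formed 8 sites in 6 lists. None of the 4 adult anti-Mzfp1 lists had a region at its promoter, although the promoter holds a match of 15.21.

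The site of mod(mdg4) most often found with anti-Mzfp1 was inside the gene, at the start of the trans-spliced unit pre-mod(mdg4)-AA. It had fold 2.20 in wt-HA adults (rank 1520 of 1699), fold 2.53 in embryos with the rat antibody (rank 684 of 788) and fold 4.52 with the rabbit antibody (rank 98 of 117). The summit lay at −46 bp from that start in wt-HA adults, −1 bp with the rat and −148 bp with the rabbit antibody, and y1w1118 adults had no region there. With the rabbit antibody 3 further regions of fold 4.21 to 4.54 followed along the first part of the gene, and the one at the promoter had its summit at −350 bp.

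With anti-HA the 3 variant lists shared a different mod(mdg4) site, in a coding exon 1679 to 1719 bp from the TSS. It had fold 2.49 in ΔM2-HA (rank 5455), 3.38 in Δ42-HA (rank 1712) and 2.24 in ΔZF-HA (rank 5109), and it was not listed in wt-HA. The Δ42-HA list had 3 more regions in the gene and the ΔM2-HA list 1 more, of fold 2.70 and 23 bp from the start of pre-mod(mdg4)-AB. No window around a mod(mdg4) summit passed the matrix threshold.

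CTCF and ZIPIC were met by single weak anti-HA regions of the variants. CTCF, the fly counterpart of the vertebrate insulator protein, is on the minus strand of chromosome 3L (7353578 to 7356713, FBgn0035769). It had a region of fold 2.36 in ΔM2-HA (rank 5936 of 6245) and of fold 2.27 in ΔZF-HA (rank 4843 of 6218), with summits 10 bp apart in a coding exon, 2766 and 2776 bp from the TSS, and none in wt-HA. Its promoter match of 18.14 was higher than that of 99.4% of protein-coding genes, and the nearest y1w1118 adult region began 2740 bp outside the window, at the start of Sec63.

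ZIPIC, a zinc finger protein that recruits CP190, is encoded on the minus strand of chromosome 3R (30035240 to 30036870, FBgn0039740). The single region in its window was that of Δ42-HA with anti-HA, of fold 2.59 at rank 5243 of 6216 and 1243 bp wide, and it reached the TSS window while its summit was 506 bp inside a coding exon. In y1w1118 adults the nearest region stood 1453 bp outside the window, at the start of Sry-alpha, with fold 7.76.

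No list held a region in the window of su(Hw) or Dref. Su(Hw) is the zinc finger protein of the gypsy insulator, and its gene is on the minus strand of chromosome 3R (14304455 to 14308589, FBgn0003567). The nearest region of any list began 1140 bp outside its window, in ΔZF-HA with anti-HA, and the nearest of y1w1118 adults 17304 bp outside. Its promoter scored −2.65 and holds 1 GGTCACAC and 1 CGATA.

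Dref, whose protein reads the DNA replication related element, is encoded on the minus strand of chromosome 2L (9964147 to 9967229, FBgn0015664), and its TSS is 84 bp from that of the ribosomal protein gene RpL13. The nearest region of any list began 398 bp outside its window, in ΔM2-HA with anti-HA, and the nearest of y1w1118 adults 35473 bp outside. Its promoter match of 14.72 was higher than that of 94.4% of protein-coding genes. A window without a listed region says that no enrichment passed the authors' thresholds there, not that binding was absent.

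Whether a gene with a promoter match also had a TSS region in y1w1118 adults varied among the 10. Of the 6 genes with a match, 3 (Cp190, pita and Chro) had a TSS region in that list, and of the 4 without a match, 2 (BEAF-32 and M1BP) had one. With the stricter threshold passed by 1% of flanking windows, 1 of 4 genes with a match (Cp190) and 4 of 6 without had one. Over all protein-coding genes 44.4% of the 1808 genes with a match had a TSS region in y1w1118 adults, against 10.2% of the 12160 genes without. The matrix was trained on that list, so the genome-wide shares are no independent evidence for it. The 10 genes are too few for a comparison of the 2 patterns.

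**Figure D4:**
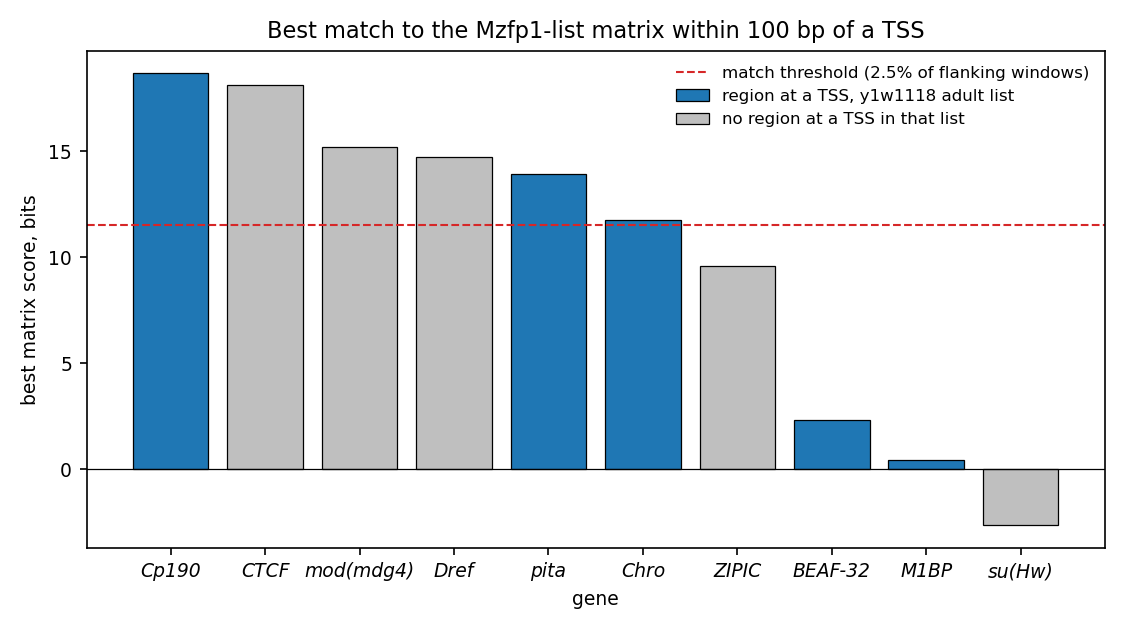
Best matrix score in bits within 100 bp of any TSS, for each of the 10 genes in order of score. Blue bars are genes with a TSS region in y1w1118 adults, grey bars genes without, and the dashed line is the threshold of 11.54. Cp190 (18.68) and CTCF (18.14) have almost the same score, and of these Cp190 alone has a region.

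The distance of the summits from a TSS of any gene can be set beside that of each whole list. With anti-Mzfp1 it was at most 100 bp for 5 of 7 regions of the 10 genes in ΔM2-HA (69.9% of all regions), 5 of 6 in Δ42-HA (70.2%), 5 of 5 in wt-HA (71.7%) and 5 of 6 in y1w1118 adults (75.1%). These regions were near a TSS about as often as the rest of their lists. With anti-HA it was at most 100 bp for 5 of 8 in ΔM2-HA (14.3% of all regions), 1 of 12 in Δ42-HA (10.2%), 1 of 4 in ΔZF-HA (3.41%) and 0 of 1 in wt-HA (55.3%). In Δ42-HA with anti-HA the nearest TSS belonged to another gene for 7 of 12 regions.

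Genes of other chromatin proteins gave a frame for these values. The lists were 18 other architectural proteins, 6 genes of cohesin and its loader and release factors, 4 of the nucleosome remodeler NURF, 8 of the dREAM repressor and 13 of the SAGA coactivator. In y1w1118 adults a TSS region was listed for 7 of the 18 architectural genes, 4 of 6 cohesin genes, 1 of 4 NURF genes, 2 of 8 dREAM genes and 5 of 13 SAGA genes. The share of all protein-coding genes with a TSS region in that list was 14.7%. A TSS region in at least 5 lists was found for 3 of the 10 genes described above (Cp190, BEAF-32 and pita) and for 14 of these 49, against 8.95% of protein-coding genes.

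In y1w1118 adults 4 of these genes had stronger TSS regions than any of the 10. The fold was 58.4 at Nipped-A, a SAGA scaffold (rank 54), 56.3 at vtd, the kleisin subunit of cohesin (rank 56), and 35.0 at pzg, a zinc finger partner of Chromator (rank 79). Nipped-A and vtd were listed in all 10 lists and pzg in 9. The SAGA subunit gene Spt20 followed at fold 10.4 (rank 182), and M1BP at fold 7.20 came after it.

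The others with a region in at least 5 lists were weaker than M1BP. In y1w1118 adults the fold was 5.01 at SMC1, 4.70 at fs(1)h, 4.49 at Iswi, 3.85 at Atxn7, 3.49 at Nipped-B, 3.43 at wapl, 3.27 at E2f2 and 3.00 at Adf1. The gene Clamp, listed in 5 lists, had none in y1w1118 adults. At CG1603, which encodes Mzfp1, 6 lists had a TSS region and all 6 came from transgenic flies, and since the transgene carries sequence of this gene, reads from the transgene and from the gene cannot be told apart.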

How the data were processed

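Reads were trimmed by the authors (cutadapt, sickle), aligned to dm6 (paired-end adult libraries with Bowtie2, single-end embryo libraries with bowtie), and removed duplicates with Picard, non-unique reads and blacklisted regions. Per the labels, deepTools was used and dm3 is named too, and all region ends fit the chromosome lengths of dm6. For embryos MACS2 was run at p 1e-05. For adults it was run at p 0.01, and regions were kept by their irreproducible discovery rate (IDR) with limits of 0.05 for replicates and 0.01 for pseudoreplicates, and the study graded 4 adult lists (wt-HA and ΔM2-HA with anti-Mzfp1, wt-HA and Δ42-HA with anti-HA) as only moderately reproducible. Lists were called against what the authors describe as the corresponding preimmune controls, and the labels do not tie a control library to each list.

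The deposited lists give positions in bp, the fold enrichment over control as a ratio, and the −log10 p-value. The deposited adult lists add a score that is the −log10 IDR. Whether the fold of an adult line describes 1 or both libraries is not stated. Left unused were 64 columns that describe the inputs to IDR.

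Genes and TSSs came from Ensembl release 115 (BDGP 6), without transposable elements, and sequence from RefSeq Release 6. Overlaps, ranks, words and the matrix were computed in Python 3.11.15 with pandas 2.3.3 and scipy 1.17.1, and checked on made-up regions and planted motifs. The matrix was seeded by the 8 bp word most enriched within 100 bp of the summit and refined in 10 rounds. All 10 genes are named. Genes of the comparison lists are named only with a TSS region in at least 5 lists, and neighbouring genes where a summit or start lay near theirs. The genes, gene lists and rules were chosen with earlier results of these data known.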

Additional observations from a re-analysis of the deposited data

How the results depend on the processing

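No paired analysis was possible because every result comes from 1 list per group with no test, and for the same reason no replicate could be left out. Of 118 alternative values, 94 stayed within 1.5 times the main count or at the main distance. Cutting adult lists to the 574 regions of the shortest left, in the gene window, 2 genes in ΔM2-HA and 0 in both Δ42-HA and ΔZF-HA with anti-HA, and 2 in ΔM2-HA, 2 in Δ42-HA, 1 in wt-HA and 2 in y1w1118 with anti-Mzfp1. At a TSS it left the same counts in each of these lists. These lower counts follow from the fewer regions kept. The share of all protein-coding genes was computed under the main rules alone, so none stands beside the alternative counts of this section. A common IDR limit of 0.01 left 1 gene in the ΔZF-HA window. A −log10 p of at least 10 left the anti-HA list of wt-HA with 0 genes, both by window and by TSS. A TSS window of 500 bp gave 5 genes in Δ42-HA and 2 in ΔZF-HA with anti-HA, and 2 in rat embryos. Requiring the summit within 200 bp gave 0 in the anti-HA list of wt-HA and 0 in rabbit embryos. From the 5′-most TSS the y1w1118 summit of BEAF-32 lay at 419 bp and that of Chro at 130 bp. A matrix threshold at 1% of the flanking windows, chosen after seeing the data, left 4 genes with a match in place of 6, without pita and Chro, and 1 of those 4 had a y1w1118 TSS region, against 4 of the 6 without a match. With 1 list per group, differences between lists in a single gene have no measured error.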
